A study of Mus musculus with 9 samples.

Results

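The hedgehog pathway was examined in the cranial vault of E14.5 mouse embryos with ectopic FGF8, through 9 genes chosen by name: the ligands Shh and Ihh, the receptor Ptch1, the signal transducer Smo, the coreceptors Cdon, Boc and Gas1, and the response genes Gli1 and Hhip. All 9 were found among the 43548 Ensembl gene identifiers of the FPKM table, where they were looked up by symbol; the set was drawn up with earlier results of these data known. The libraries fall into 3 groups of 3. The MCAGF8 cranial vault came from embryos carrying the Msx2-Cre transgene and a CAGF8 allele, in which Cre removes a stop cassette so that a CAG promoter in the ROSA26 locus drives Fgf8b; Msx2-Cre acts in the head ectoderm and not in the mesenchyme beneath it, and the skin was peeled away before collection. Control cranial vault and cartilaginous cranial base, the latter taken after removal of the brain, came from embryos without Cre. The labels call these controls wildtype, while the methods describe the CAGF8 stock as homozygous, so that controls of that cross would carry the allele with its stop cassette in place. All embryos were of E14.5 and of a mixed strain, 3 tissue samples were pooled for every library, and both control tissues were dissected from control embryos, without a statement of which embryos entered which pool. P-values therefore measure the spread between pools.

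Hedgehog ligands are secreted proteins that bind PTCH1 on the receiving cell. Unbound, PTCH1 holds SMO inactive; once ligand binds, SMO enters the primary cilium and GLI transcription factors switch on target genes. Ptch1, Gli1 and Hhip are such targets, and because PTCH1 and HHIP both bind and restrain the ligand they close a negative feedback loop. CDON, BOC and GAS1 present ligand to PTCH1, and their genes are known to be turned down where the pathway is active. Ihh is made by prehypertrophic chondrocytes during endochondral ossification and by osteoblast precursors at the margins of the growing calvarial bones, whereas Shh is made in ectodermal and midline sources such as hair placodes, the notochord and parts of the brain.

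In the MCAGF8 vault, Ihh, Ptch1, Gli1 and Hhip were lower than in the control vault and Cdon and Boc were higher, in each case without overlap between the libraries, while the means of Smo were nearly equal. Of all genes, 9.35% lay wholly below and 9.9% wholly above the control vault in the same way. After correction over all genes none of the vault differences of the 9 genes passed the threshold. Against the control cranial base, where 8.39% of all genes passed (5.41% lower and 2.98% higher), Ihh, Ptch1, Gli1 and Hhip were called lower in the MCAGF8 vault and Cdon and Boc higher. Shh passed too, but entered the tests only through its level in the base.

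The upstream sequences of the genes that were lower together in the MCAGF8 vault are given as RefSeq places them on GRCm38.p6. A window of 250 bases before to 50 after the start was held for 6 of the 9 genes (Ihh, Ptch1, Hhip, Smo, Cdon and Gas1). The bases before the start are printed for Ihh, Ptch1 and Hhip, with GC boxes (GGGCGG on either strand) in capitals.

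Ihh, chr1:74951673-74951922, minus strand: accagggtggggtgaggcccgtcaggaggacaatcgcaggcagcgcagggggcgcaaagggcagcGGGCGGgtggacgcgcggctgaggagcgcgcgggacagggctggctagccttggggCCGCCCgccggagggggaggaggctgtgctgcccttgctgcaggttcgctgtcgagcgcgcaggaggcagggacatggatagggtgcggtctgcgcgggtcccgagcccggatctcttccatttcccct
Ptch1, chr13:63565736-63565985, minus strand: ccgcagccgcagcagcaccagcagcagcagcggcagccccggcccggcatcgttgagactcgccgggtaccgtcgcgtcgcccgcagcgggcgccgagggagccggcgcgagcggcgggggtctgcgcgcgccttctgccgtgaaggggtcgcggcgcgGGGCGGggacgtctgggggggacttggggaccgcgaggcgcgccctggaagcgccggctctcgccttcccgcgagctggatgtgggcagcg
Hhip, chr8:80058009-80058258, minus strand: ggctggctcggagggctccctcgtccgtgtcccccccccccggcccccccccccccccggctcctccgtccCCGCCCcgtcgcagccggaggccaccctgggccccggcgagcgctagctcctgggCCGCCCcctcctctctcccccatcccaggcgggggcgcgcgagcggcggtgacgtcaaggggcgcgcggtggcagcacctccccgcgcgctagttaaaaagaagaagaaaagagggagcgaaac

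Ihh and Hhip each hold 2 GC boxes in these 250 bases and Ptch1 holds 1, and 32.7% of the 32851 RefSeq windows hold at least 1 there. Among the windows not printed, that of Gas1 holds 1 and those of Smo and Cdon hold 0. The letters GACCACCCA, the sequence that GLI proteins bind best, and the looser GACCNCCCA were searched on both strands of the 300-base windows and matched none of the 6 genes; they occur in 0.253% and 0.977% of all windows. The absence of a match says only that these letters are not in these windows. The Ptch1 start lies 7863 bases inside the gene as GENCODE M21 draws it, which has further transcripts starting upstream and downstream. That of Cdon lies 30948 bases inside its GENCODE M21 gene, so the Cdon window is not at the start of that gene.

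Several properties of the libraries bear on what follows. Library sums of FPKM, without the genes that hold a placeholder, ran from 793249 to 1315980, and 16006 to 17281 genes had an FPKM of at least 1; the read depth is unknown, since the table holds no counts. Replicate libraries correlated at r = 0.970 to 0.974 in the control vault, 0.959 to 0.980 in the MCAGF8 vault and 0.904 to 0.946 in the control base, over genes, which are not independent replicates. Control base replicate 2 stood apart: its 6 cartilage markers summed to 4785 FPKM, against 368 and 625 in replicates 1 and 3, both of which were below the lowest control vault library (798). The defining cartilage gene Col2a1 was present in all base libraries, at 163, 2292 and 268 FPKM in replicates 1, 2 and 3, and the 6 skeletal muscle markers of the base summed to 1516 to 10806 FPKM. Fgf8 itself overlapped between the vaults, at 19.5, 9.43 and 13.0 FPKM in the MCAGF8 libraries and 13.5, 8.25 and 3.01 in the controls, and the table lists the gene once, whatever the source of its transcripts.

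**Figure D1:**
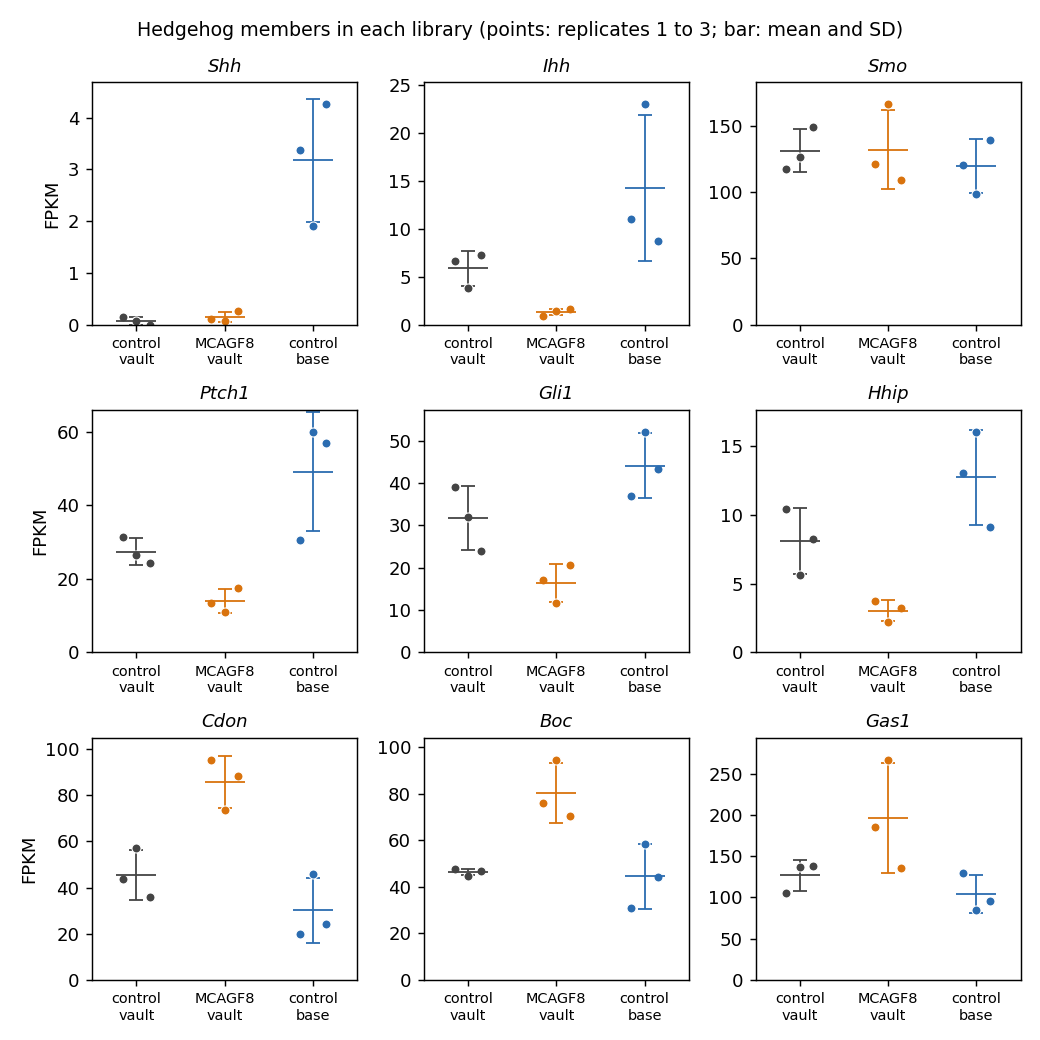
FPKM of the 9 hedgehog genes (y axes) in the control vault, MCAGF8 vault and control base (x axes), with replicates 1 to 3 as points from left to right and the mean with its SD as bars. Ihh, Ptch1, Gli1 and Hhip sit lowest in all 3 MCAGF8 libraries, Cdon and Boc sit highest there, and Shh is above 1 FPKM in the control base alone.

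Among the ligands, Ihh (ENSMUSG00000006538, chromosome 1 from 74945315 to 74951672) encodes Indian hedgehog, the hedgehog protein of the skeleton. It measured 6.60, 3.78 and 7.23 FPKM in control vault replicates 1, 2 and 3, against 0.911, 1.44 and 1.58 in the MCAGF8 vault. Every MCAGF8 library was thus below the lowest control. The means were 5.87 ± 1.84 and 1.31 ± 0.354 FPKM (SD, n = 3 each), 4.48-fold apart, and the log2 difference was -1.54 (standard error 0.36; limma, adjusted p = 0.177). In this comparison 113 of 18714 genes (0.604%) passed the threshold, an unadjusted p under 0.05 with a Benjamini-Hochberg adjusted p under 0.1, so Ihh was not called. It was called with a smaller pseudocount of 0.1 or 0.01 in place of 1 (adjusted p = 0.0756 and 0.0734, limma), in a fit to the 6 vault libraries (0.0918) and without control base replicate 2 (0.0528), out of 0.0528 to 0.652 over its 19 alternatives.

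In the control base Ihh reached 11.0, 23.0 and 8.75 FPKM, with the highest value in replicate 2, the library rich in cartilage genes. The base mean of 14.3 ± 7.66 FPKM (SD, n = 3) stood 10.9-fold above that of the MCAGF8 vault. This difference was called (log2 difference -2.62 for the MCAGF8 vault, standard error 0.36; limma, adjusted p = 0.00662), as were 1571 of 18714 genes (8.39%), and it was called in each of its 19 alternatives. The base also lay above the control vault with no overlap, by 1.08 on the log2 scale (standard error 0.36), without passing the threshold (limma, adjusted p = 0.210, where 3.06% of genes passed). The order of Ihh was therefore MCAGF8 vault, control vault, control base, with only its ends differing past the threshold.

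Shh (ENSMUSG00000002633, chromosome 5 from 28456815 to 28467256), the ligand of limb, neural tube and epithelial patterning, was close to 0 in both vaults. It was listed at 0.141, 0.0678 and 0 FPKM in the control vault and at 0.103, 0.0668 and 0.258 in the MCAGF8 vault. These values overlapped, and the log2 difference was 0.09 (standard error 0.25; limma, adjusted p = 0.986). Shh was present in the control base, at 3.36, 1.90 and 4.25 FPKM, a mean of 3.17 ± 1.19 (SD, n = 3), and there replicate 2 was the lowest. Shh entered the tests through the base alone, since both vault means were below the filter of 0.5 FPKM, so its calls against the base are given as values and support nothing. The log2 difference of the base over the control vault was 1.92 (standard error 0.25) and that of the MCAGF8 vault over the base -1.83, and the former reached 5.95 with another pseudocount. Antisense RNAs overlap Shh on the opposite strand, and the strand setting used in counting is not stated.

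The receptor gene Ptch1 (ENSMUSG00000021466, chromosome 13 from 63508328 to 63573598) is both the brake on SMO and a target of the pathway. Control vault libraries held 31.4, 26.5 and 24.2 FPKM, and MCAGF8 libraries 13.4, 11.0 and 17.5. The highest MCAGF8 value was below the lowest control value. The mean went from 27.4 ± 3.65 FPKM in the control vault to 14.0 ± 3.26 in the MCAGF8 vault (SD, n = 3 each), 1.96-fold apart, with a log2 difference of -0.93 (standard error 0.28; limma, adjusted p = 0.355). In the control base Ptch1 was at 30.4, 59.9 and 56.9 FPKM, where replicate 1 fell within the control vault range. The MCAGF8 vault was below the base by 1.70 on the log2 scale (standard error 0.28; limma, adjusted p = 0.0113), a called difference.

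Gli1 (ENSMUSG00000025407, chromosome 10 from 127329882 to 127341974), an activator that is itself switched on by the pathway and so serves as its standard readout, followed the same order. It measured 39.1, 32.0 and 23.9 FPKM in the control vault and 17.0, 11.6 and 20.6 in the MCAGF8 vault. The groups did not overlap, although control replicate 3 and MCAGF8 replicate 3 came near each other. The means of 31.7 ± 7.60 and 16.4 ± 4.53 FPKM (SD, n = 3 each) gave a log2 difference of -0.92 (standard error 0.26; limma, adjusted p = 0.310). Base libraries held 36.9, 52.1 and 43.4 FPKM, overlapping the control vault in replicate 1 and above the MCAGF8 vault in all 3. Gli1 was called lower in the MCAGF8 vault than in the base (-1.40, standard error 0.26; limma, adjusted p = 0.0163), except with every library rescaled to a sum of 1000000 (adjusted p = 0.121). Arhgap9 overlaps Gli1 on the opposite strand.

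Hhip (ENSMUSG00000064325, chromosome 8 from 79965851 to 80058006) encodes a membrane decoy that binds hedgehog ligands. Its FPKM were 10.4, 5.64 and 8.28 in the control vault, 3.70, 2.18 and 3.21 in the MCAGF8 vault, and 13.0, 16.0 and 9.13 in the base. All MCAGF8 values were below all others, while the base and the control vault overlapped. Of the response genes Hhip had the widest vault difference, 2.68-fold between means of 8.12 ± 2.40 and 3.03 ± 0.775 FPKM (SD, n = 3 each) and -1.16 on the log2 scale (standard error 0.29; limma, adjusted p = 0.214). It was called against the base (-1.76, standard error 0.29; limma, adjusted p = 0.0113).

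Smo (ENSMUSG00000001761, chromosome 6 from 29735503 to 29761365), the transducer on which the signal converges, had means of 131 ± 16.2, 132 ± 30.2 and 119.6 ± 20.5 FPKM (SD, n = 3 each) in the control vault, MCAGF8 vault and base. The control vault held 118, 126 and 149 FPKM, the MCAGF8 vault 121, 166 and 109, and the base 121, 98.6 and 139. All groups overlapped. The log2 difference between the vaults was -0.01, with a 95% interval from -0.49 to 0.48, and between the base and the control vault -0.14, from -0.62 to 0.34. Its sign changed under some scalings and with single libraries left out.

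Of the coreceptors, Cdon (ENSMUSG00000038119, chromosome 9 from 35421128 to 35507652), an immunoglobulin superfamily protein that binds ligand at the cell surface, was at 43.6, 57.1 and 35.8 FPKM in the control vault and at 95.6, 73.6 and 88.6 in the MCAGF8 vault. Each MCAGF8 library exceeded every control. The means were 45.5 ± 10.8 and 85.9 ± 11.2 FPKM (SD, n = 3 each), 1.89-fold apart, with a log2 difference of 0.92 (standard error 0.30; limma, adjusted p = 0.450). Base libraries, at 19.9, 46.0 and 24.4 FPKM, were lower still than the control vault in replicates 1 and 3. Cdon was called higher in the MCAGF8 vault than in the base (1.56, standard error 0.30; limma, adjusted p = 0.0189).

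Boc (ENSMUSG00000022687, chromosome 16 from 44485049 to 44558897), the paralog of Cdon, was steady among control vault libraries, at 47.5, 44.7 and 46.8 FPKM. The MCAGF8 vault held 76.1, 94.7 and 70.3 FPKM, all above the controls, with means of 46.3 ± 1.45 and 80.4 ± 12.8 (SD, n = 3 each) and a log2 difference of 0.77 (standard error 0.23; limma, adjusted p = 0.363). In the base it ranged over 30.8, 58.5 and 44.1 FPKM, on both sides of the control vault. The call against the base was a marginal one (0.87, standard error 0.23; limma, adjusted p = 0.0652) and was lost in 12 of 19 alternatives, with an adjusted p of at most 0.197.

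Gas1 (ENSMUSG00000052957, chromosome 13 from 60174405 to 60177365), which codes for a lipid-anchored coreceptor, pointed the same way with wider spread. Its values were 105, 137 and 138 FPKM in the control vault and 185, 267 and 135 in the MCAGF8 vault, whose replicate 3 lay within the control range. The means of 127 ± 19.0 and 196 ± 66.7 FPKM (SD, n = 3 each) had a log2 difference of 0.58 (standard error 0.27; limma, adjusted p = 0.826). In the base it was at 130, 85.2 and 96.1 FPKM, and every MCAGF8 library was higher. Gas1 missed the threshold against the base (0.88, standard error 0.27; limma, adjusted p = 0.106) and passed it in 5 of 19 alternatives.

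**Figure D2:**
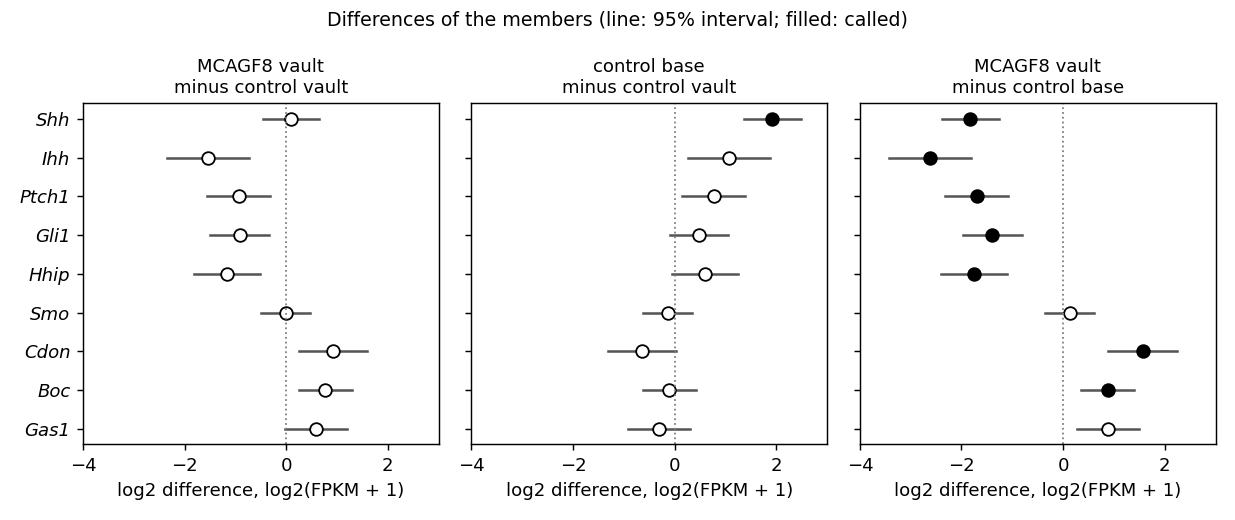
Log2 differences on the log2(FPKM + 1) scale (x axis) of the 9 genes (y axis) in 3 panels: MCAGF8 vault minus control vault, control base minus control vault, and MCAGF8 vault minus control base. Points are limma estimates, lines their 95% intervals, and filled points passed the threshold: 0, 1 and 7 genes from left to right. The 1 gene is Shh, which is also among the 7.

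Counted together, 0 of the 9 genes were called between the vaults by limma, where 0.604% of all genes were (0.374% lower and 0.23% higher). At an unadjusted p under 0.05 limma passed 6 (Ihh, Ptch1, Gli1 and Hhip lower, Cdon and Boc higher), and a linear model without moderation called 0 and passed 6 as well. For the directions apart, 3.48% of all genes were lower and 2.86% higher at an unadjusted p under 0.05. The 3 MCAGF8 values lay below all 3 control values for 4 of the 9 genes and above them for 2, against 9.35% and 9.9% of all genes. Between the control base and the control vault the sole gene called was Shh, which the base alone brought past the filter, and 0 of the other 8 were called, where 1.85% of all genes were called higher and 1.21% lower. There 3 of the 9 were higher at an unadjusted p under 0.05 (Shh again, with Ihh and Ptch1) and 0 lower, against 8.09% and 4.71% of all genes, and 2 lay wholly above the control vault and 0 below, against 8.86% and 6.69%. Between the MCAGF8 vault and the control base, 5 were called lower (4 without Shh) and 2 higher, where 5.41% of all genes were called lower and 2.98% higher. The unadjusted p was under 0.05 for 5 lower and 3 higher genes, against 12.8% and 6.83% of all genes, and 5 lay wholly below the base and 3 above it, against 13% and 8.91%. The comparisons share libraries, so their results are not independent of each other.

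Set against each other, response genes and coreceptors separated the groups in every library. Over Ptch1, Gli1 and Hhip the median log2 difference between the vaults was -0.93, over Cdon, Boc and Gas1 it was 0.77, and over all 18714 genes it was -0.01. The mean log2(FPKM + 1) of the response genes minus that of the coreceptors was -1.32, -1.97 and -1.80 in control vault replicates 1, 2 and 3. In the MCAGF8 vault it was -3.38, -3.99 and -3.00, below every control. The control base held -0.79, -0.71 and -0.70, above every vault library.

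Expressed in FPKM, the 3 coreceptors together amounted to 2.42, 3.72 and 3.92 times the 3 response genes in the control vault, 10.4, 17.6 and 7.12 times in the MCAGF8 vault, and 2.24, 1.48 and 1.50 times in the base. MCAGF8 replicate 2 stood at one extreme, with the lowest Ptch1, Gli1 and Hhip and the highest Boc and Gas1 of its group, although its Cdon was the lowest of the group. The difference of the score between the vaults was -1.76, and it kept its sign over 11 alternatives, from -1.99 to -1.50. No p-value is given for this score, since its genes were chosen with results of these data known.

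**Figure D3:**
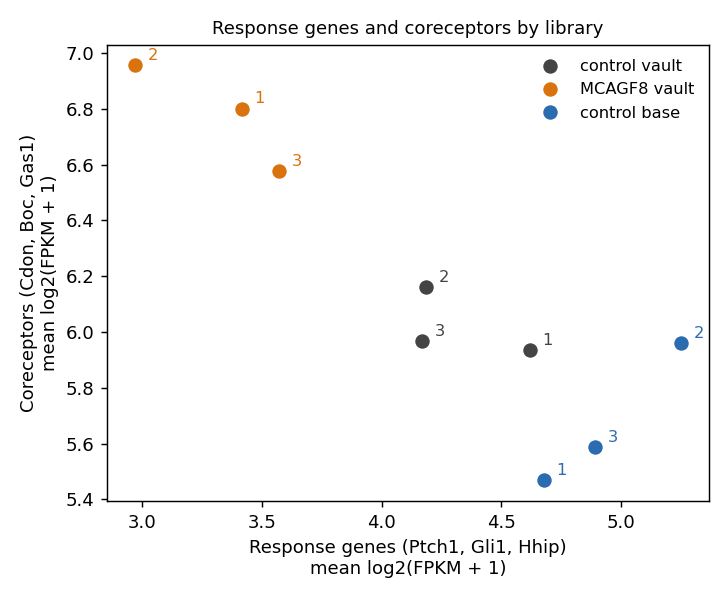
Mean log2(FPKM + 1) of Ptch1, Gli1 and Hhip (x axis) against that of Cdon, Boc and Gas1 (y axis) in each of the 9 libraries, numbered by replicate and coloured by group. The MCAGF8 libraries lie at upper left, between 2.97 and 3.57 for the response genes and between 6.58 and 6.96 for the coreceptors; the base libraries lie to the right, between 4.68 and 5.25 for the response genes.

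The rest of the pathway was followed in a list of 28 further genes, of which 26 were in the table and 25 passed the filter of a mean of 0.5 FPKM. Foxf1 and Foxl1 were not analysed here, and Lrp2 was below the filter. Between the vaults limma called 0 of the 25, with 1 at an unadjusted p under 0.05, and a linear model without moderation also called 0 and passed 1. Of all genes limma called 0.604% there, with 3.48% lower and 2.86% higher at an unadjusted p under 0.05. The estimate was above 0 for 17 of the 25 and below 0 for 8, with a median log2 difference of 0.21. Over all 18714 genes it was above 0 for 9082, with a median of -0.01. Of the 25, the largest difference was that of Scube1, which encodes a secreted protein related to the SCUBE that releases lipid-bearing ligand (0.73, standard error 0.40; limma, adjusted p = 0.930).

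Neither of the other GLI genes was lower in the MCAGF8 vault as Gli1 was. Gli2, the main activator upstream of Gli1, measured 16.6, 15.4 and 19.4 FPKM in the control vault and 22.5, 26.8 and 22.7 in the MCAGF8 vault, with a log2 difference of 0.46 (standard error 0.21; limma, adjusted p = 0.785). Gli3, which mainly acts as a repressor, measured 14.0, 14.8 and 12.7 against 18.5, 16.9 and 18.0 FPKM, with 0.35 (standard error 0.26; limma, adjusted p = 0.969). Both were above every control in all 3 MCAGF8 libraries, as were 9.9% of all genes, and neither was called. Gli2 was called higher in the MCAGF8 vault than in the base (0.87, standard error 0.21; limma, adjusted p = 0.0430).

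Genes of the primary cilium and of signal transduction (Evc, Evc2, Kif7, Gpr161, Sufu, Stk36, Spop, Ift88, Arl13b and Kif3a) were called in 0 of the 3 comparisons by limma. Their log2 differences ran from -0.08 to 0.36 between the vaults and from -0.29 to 0.24 between the base and the control vault. At an unadjusted p under 0.05, 1 of the 10 passed in the comparison of the MCAGF8 vault with the base, and 0 passed in the others. Of all genes limma called 0.604% between the vaults, 3.06% between base and control vault and 8.39% between the MCAGF8 vault and the base. At the unadjusted threshold 3.48% were lower and 2.86% higher between the vaults, and 12.8% and 6.83% between the MCAGF8 vault and the base. Between base and control vault 4.71% were lower and 8.09% higher. With 10 genes, counts this low lie close to these shares.

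Of the 7 genes of ligand processing and release, Dhh and Disp2 were called higher and Disp1 lower in the base than in the control vault. Disp1, which encodes the transporter that exports lipid-bearing hedgehog from the producing cell, was at 22.9, 25.1 and 24.0 FPKM in the control vault and at 7.96, 12.0 and 12.6 in the base, a called difference of -1.10 (standard error 0.19; limma, adjusted p = 0.0289). Its relative Disp2 went the other way, from 0.354, 0.0718 and 0.127 FPKM to 2.12, 3.95 and 11.4, but it passed the filter only through the base, so its call is no support. Dhh, the ligand of Schwann cells and gonads, was called higher in the base too (1.55; limma, adjusted p = 0.0622).

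Among known mesenchymal targets, Foxf2, a forkhead gene of palate and gut mesenchyme, measured 2.35, 1.44 and 2.32 FPKM in the control vault, 2.90, 2.14 and 0.755 in the MCAGF8 vault and 48.0, 20.2 and 46.2 in the base. It was called in both comparisons with the base (3.61 over the control vault; limma, adjusted p = 0.00431) and had the largest difference of the list in each. Between the vaults, where Ptch1, Gli1 and Hhip were lower without overlap, Foxf2 overlapped. Nkx3-2, a homeobox gene of early chondrocytes, was likewise called higher in the base than in the control vault (1.72; limma, adjusted p = 0.0342).

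Pthlh and Pth1r form a loop with Ihh in growing cartilage, in which Ihh raises Pthlh and its protein, PTHrP, delays the maturation of the cells that make Ihh. Pthlh was at 3.71, 2.25 and 3.78 FPKM in the control vault, 2.55, 3.96 and 2.04 in the MCAGF8 vault, and 5.94, 9.76 and 10.8 in the base. It was called higher in the base than in the control vault (1.20; limma, adjusted p = 0.0938), and the vaults overlapped. Pth1r, its receptor, was called in 0 of the 3 comparisons by limma, and 0 times at an unadjusted p under 0.05, with log2 differences from -0.33 to -0.06. Between the base and the control vault 5 of the 25 genes were called higher (4 without Disp2) and 1 lower, where 1.85% and 1.21% of all genes were, and between the MCAGF8 vault and the base 2 were called higher (Disp1 and Gli2) and 5 lower (Dhh, Disp2, Foxf2, Nkx3-2 and Pthlh), where 2.98% and 5.41% of all genes were. The count of 6 between base and control vault fell to 1 in a fit to those libraries alone and without control vault replicate 1 or 3, and to 2 without control vault replicate 2 or without moderation; that of 7 was 3 and 4 without MCAGF8 replicate 1 and 3.

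**Figure D4:**
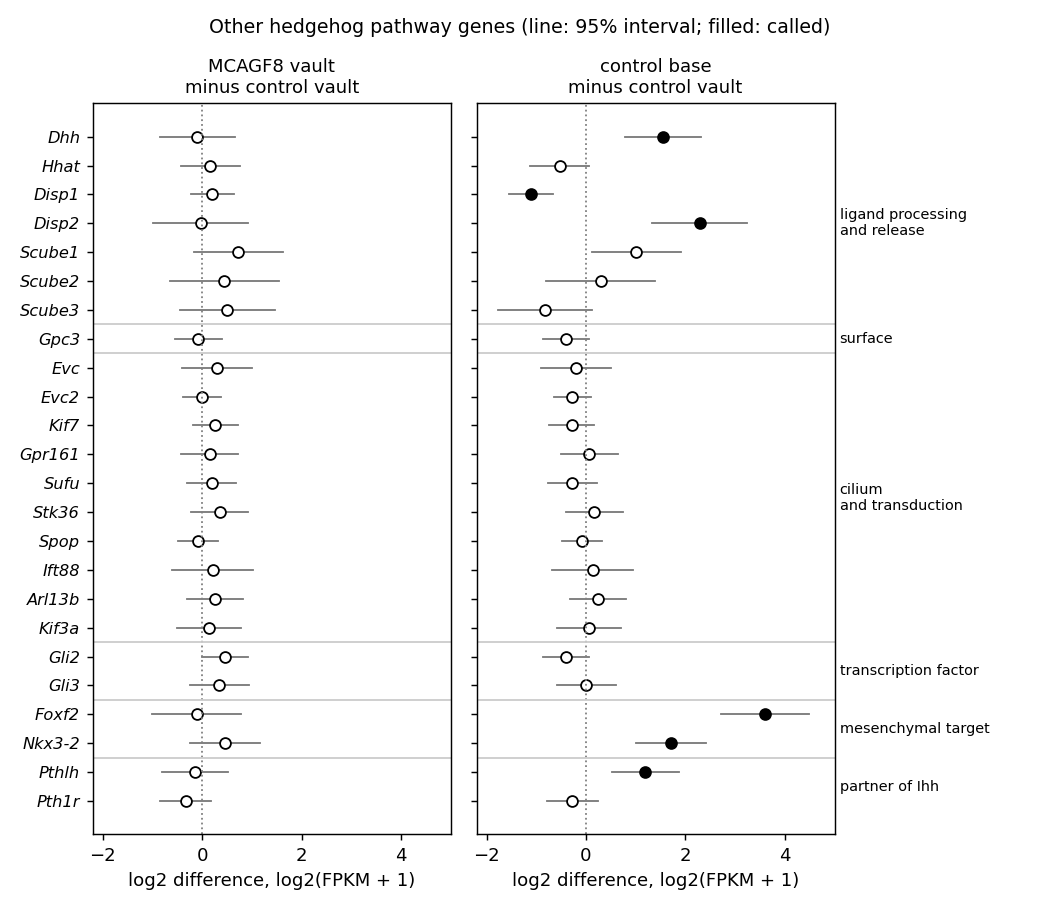
Log2 differences (x axis, log2(FPKM + 1) scale) of 24 of the 25 tested pathway genes (y axis, grouped by role) for the MCAGF8 vault against the control vault and for the control base against the control vault. Points are limma estimates, lines 95% intervals and filled points called genes: 0 between the vaults, 6 between base and vault.

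Markers of other cell types differed between the same groups, and their part in the hedgehog differences was not tested. The 7 osteoblast markers summed to 865 to 2055 FPKM in the control vault and 39.9 to 94.6 in the MCAGF8 vault, with all 7 lower in every MCAGF8 library. Sp7, the defining factor of osteoblast precursors, went from 105, 55.4 and 123 FPKM to 17.5, 20.6 and 16.0, and Bglap2 was listed at 0 in all MCAGF8 libraries. Control vault replicate 2, the lowest of its group for these markers, was also the lowest for Ihh and Hhip, but not for Ptch1 or Gli1, which were lowest in replicate 3. In bulk tissue, fewer cells of a type and less RNA per cell cannot be told apart.

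Hypertrophic cartilage markers, 5 genes that include Pth1r, summed to 198 to 303 FPKM in the control vault, 103 to 144 in the MCAGF8 vault and 430 to 1227 in the base. Col10a1, which defines hypertrophic chondrocytes, ranged from 0.945 to 2.05, from 0.346 to 0.438 and from 74.2 to 658 FPKM in these groups. By group means Ihh had the order of Col10a1, Mmp13 and Snorc, not that of Panx3 or Pth1r. Mmp13 averaged 3.09, 0.113 and 6.78 FPKM and Snorc 31.9, 16.2 and 239 in the control vault, MCAGF8 vault and base. Snorc overlapped between the vaults and Mmp13 between base and control vault. The highest Ihh value fell in the library with the highest Col10a1. The sum of the general cartilage markers went the other way in the vaults. These 6 genes summed to 798 to 1127 FPKM in the control vault and 1185 to 2281 in the MCAGF8 vault. Of the 6, 3 were higher in every MCAGF8 library than in every control vault library, and the others overlapped. None of the 6 was called between the vaults by limma.

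Epidermal markers, 8 genes, summed to 14.1 to 103 FPKM in the control vault, 386 to 1002 in the MCAGF8 vault and 64.9 to 678 in the base, with 6 of the 8 higher in every MCAGF8 library than in every control. The defining gene Krt5 was at 139 to 252 FPKM in the MCAGF8 vault and 1.63 to 29.2 in the control vault. Shh, by contrast, was at 0.258 FPKM or less in the MCAGF8 libraries. Hair placode markers, 5 genes, summed to 8.01 to 29.6 FPKM in the control vault, 26.0 to 36.1 in the MCAGF8 vault and 20.1 to 78.6 in the base, and the defining Edar was at 0.714 to 1.44 FPKM in the MCAGF8 vault and 0.292 to 0.622 in the control vault. Of the 5, Edar and Sostdc1 were higher in every MCAGF8 library than in every control vault library, whereas the means of Lhx2 (11.2 in the control vault and 5.67 in the MCAGF8 vault) and Fgf20 (0.343 and 0.110) were lower with overlap.

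Of the neuronal and forebrain markers Tubb3 was not analysed here, and 2 of the other 5, Stmn2 among them, were higher in every base library than in every control vault library. The 5 summed to 109 to 475 FPKM in the base, 12.2 to 42.7 in the control vault and 33.1 to 73.2 in the MCAGF8 vault. Most of each sum was Stmn2, at 100.3 to 470.1 FPKM in the base, while Neurod1 overlapped, at 0.0223 to 5.14 FPKM in the control vault and 0.214 to 2.70 in the base. Of the notochord markers Noto was at 0 in all 9 libraries, T was at or below 0.979 FPKM, and Foxa2, which floor plate and endoderm also express, was at 2.31, 5.39 and 2.47 FPKM in the base, 0.241 to 0.288 in the control vault and 0.334 to 1.11 in the MCAGF8 vault. The 3 genes summed to 2.91 to 6.04 FPKM in the base and 0.493 to 2.05 in the vaults. Skeletal muscle markers, 6 genes, summed to 784 to 5235 FPKM in the control vault and 15.7 to 157 in the MCAGF8 vault, and Mylpf alone was at 9.82 to 76.8 FPKM in the MCAGF8 vault.

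**Figure D5:**
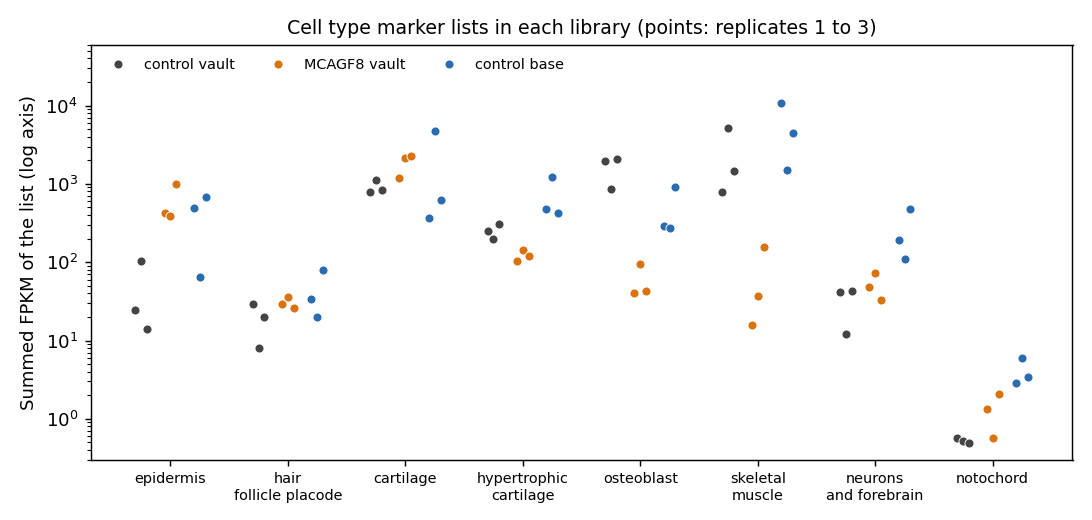
Summed FPKM (y axis, log scale) of 8 cell type marker lists (x axis) in the control vault, MCAGF8 vault and control base, with replicates 1 to 3 as points from left to right. Osteoblast and muscle sums are lower and epidermal sums higher in all 3 MCAGF8 libraries than in all 3 control vault libraries, and control base replicate 2 is highest for cartilage.

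The genes whose pattern was most like that of Ihh over the 9 libraries, among 12934 genes with a mean of at least 5 FPKM, were Pcolce2 (Pearson's r = 0.977, Spearman's rho = 0.933), Aldh1a3 (r = 0.974), Omd (r = 0.971), Plekhb1 (r = 0.937) and Fndc3c1 (r = 0.933). Pcolce2, for example, averaged 7.51, 2.41 and 17.8 FPKM in the control vault, MCAGF8 vault and base, the order of Ihh. Closest to Gli1 were Ssx2ip (r = 0.966), Dcx (r = 0.952), Ccdc34 (r = 0.944), Tomm70a (r = 0.940) and Sytl2 (r = 0.938). For Shh they were Th (r = 0.992), Sncg (r = 0.982), 2010111I01Rik (r = 0.973), Rgs4 (r = 0.968) and Aldh1a1 (r = 0.968). Each had its highest mean in the base, and their rank correlations were lower, down to 0.483 for Aldh1a1. Th, Sncg and Aldh1a1 had means below 5 FPKM in both vaults, so they passed the filter through the base alone. Shh itself was close to 0 in both vaults, so its r values rest on the base libraries and say little about the vaults. The correlations with Ihh, Gli1 and Shh describe 9 libraries in 3 groups that share tissue, and carry no p-value.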

How the data were processed

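RNAseq was analysed in 9 libraries, 3 each from the MCAGF8 cranial vault, control cranial vault and control cranial base, grouped by their titles. Per the labels and methods, the libraries were made with a stranded mRNA kit and read from a single end. Mapping by the authors was done in gSNAP and FPKM, the deposited unit, came from Cufflinks, 1 value per Ensembl gene. Versions, build and annotation were not given in the sources at hand. The authors compared groups by ANOVA in R.

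Here 63 rows with an identifier already listed were added to the earlier row, and 9 genes with a placeholder (999999999, 17 cells) were left out; none is a hedgehog gene. Symbols came from a table of Ensembl identifiers, and locations from GENCODE M21 on GRCm38. Values were put on the log2(FPKM + 1) scale, where a difference understates the change of low genes. A mean FPKM of 0.5 or more was required, which left 18714 genes for limma 3.58.1 (R 4.3.3, eBayes with a trend), with 1 mean per group, all 9 libraries and two-sided tests. Calls needed both an unadjusted p under 0.05 and an adjusted p (Benjamini-Hochberg, over all genes tested) under 0.1. The fit was tested on simulated data. Plots were drawn with matplotlib 3.10.9 in Python 3.11.15.

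The 9 genes, the pathway list and the 8 marker lists were chosen with earlier results of these data known. Genes named beyond the 9 were pathway genes called in any comparison, the largest difference of that list per comparison, the defining gene of each marker list, and the 5 genes most correlated with Ihh, Shh and Gli1. Gli3, Pth1r and Bglap2, and the list of cilium genes, were named outside this rule after their values were seen. So were Noto, Lrp2, Foxa2, Stmn2, Neurod1, Sostdc1, Lhx2, Fgf20, Panx3, Mmp13 and Snorc. Of the pathway and marker genes counted, some are not reported here by themselves. Alternatives were other pseudocounts, filters and scalings, a fit without the group outside the comparison, a block on the replicate number, no moderation, an unadjusted threshold and each library left out.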

Additional observations from a re-analysis of the deposited data

How the results depend on the processing

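The read depth behind each FPKM is unknown, so no counting interval is given, and with 3 pools per group the spread of single embryos cannot be seen. The signs of the vault differences of Ihh, Ptch1, Gli1, Hhip, Cdon, Boc and Gas1 were kept over all 19 alternatives of each, and those of the response and coreceptor score over 11 in each comparison. Rescaling every library to a sum of 1000000 moved the median log2 difference of all genes between the vaults by 0.14 (to 0.13) and against the base by 0.18 (to 0.11).

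Between the vaults, the 9 hedgehog genes had 1 call (Ihh) with a pseudocount of 0.1, a pseudocount of 0.01 and the libraries of both groups compared only, 0 to 1 with 1 library left out (1 without control base replicate 2), and 6 at an unadjusted p under 0.05 alone; the other pathway genes then had 1. Between control base and control vault, the 9 genes had 0 calls with a mean FPKM of at least 5, which removes Shh, 1 to 2 with 1 library left out (Ptch1 without base replicate 1 and Cdon without base replicate 2 joined Shh), and 3 at the unadjusted threshold. The other pathway genes there had 2 with a mean FPKM of at least 5, 1 with both groups compared only, 3 with the replicate block, 2 without moderation, and 1 to 6 with 1 library left out. Between the MCAGF8 vault and the base the 9 genes had 6 to 8 calls in all 20 alternatives, and the other pathway genes 3 when a mean of 5 FPKM was required and 3 to 10 with 1 library left out. In both comparisons with the base Shh, whose calls are no support, was counted among the 9 genes in every alternative except the mean of 5 FPKM. Between the vaults Shh was not called in any alternative. The causes were not tested.

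Smo changed sign between the vaults after quantile normalization (0.11), rescaling to a sum of 1000000 (0.17), and without control vault replicate 3 (0.09), MCAGF8 replicate 1 (0.04) or MCAGF8 replicate 3 (0.12), and against the base without MCAGF8 replicate 2 (-0.042). Boc did so between base and control vault without base replicate 1 (0.13). With 1 library left out the ranges were -0.18 to 0.12 for Smo between the vaults, -0.042 to 0.26 for Smo against the base and -0.32 to 0.13 for Boc between base and control vault. Over all genes, the count called ran from 0 (no moderation; 1223 at an unadjusted p under 0.05) to 231 between the vaults (113 in the report), from 108 to 1322 between base and control vault (573), and from 559 to 4580 between the MCAGF8 vault and the base (1571), where quantile normalization turned 558 higher and 1013 lower into 1153 and 810. The highest counts, 231, 1322 and 4580, came without control base replicate 2. Without any 1 of the MCAGF8 replicates, or control vault replicate 1 or 3, the count between the vaults was 11 to 14.

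Whether replicate numbers pair the samples is not stated. Same-numbered libraries of the vaults deviated from their group means with correlations of 0.370, -0.0661 and -0.435. MCAGF8 replicate 1 correlated best with control vault replicate 1, and base replicate 3 with control vault replicate 3, while the other libraries correlated best with another number. These correlations cannot settle the pairing, since libraries of a group also differed in their cartilage and muscle markers. With the replicate block the 9 genes had 0 calls between the vaults, 1 between base and control vault (Shh) and 6 between the MCAGF8 vault and the base (Shh among them). Over all genes the block gave 19, 234 and 918.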
